A study of Mus musculus with 6 samples.

Results

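Hist1h3a, Hist1h3b and Hist1h3h, 3 genes for the canonical histone H3, are described here in mouse gliomas of the brainstem, 3 with H3.3K27M and 3 without. They were taken by name from a table of 223 genes that differed between these groups, and all 3 were found in it. In all 6 tumours the growth factor PDGF-B was present and p53 was lost. The mice were C57BL/6 with the Nestin tv-a transgene, which gives nestin-expressing progenitors the receptor for an avian retrovirus, and a floxed p53 gene. One group (n = 3) also had H3.3K27M, the histone variant H3.3 with lysine 27 changed to methionine, and the other 3 had PDGF-B and p53 loss alone, with titles that read H3.3WT (WT alone in 1 column header). Each tumour is called independent in the design text and counts here as 1 replicate. Whether the H3.3WT tumours received a wild-type H3.3, whether the introduced histone was of mouse or human sequence, and the age of the mice are not stated in the sources used here. The deposited values are read counts normalized between tumours, with no correction for gene length.

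Histone H3 wraps DNA as part of the nucleosome, and its lysine 27 is methylated by the Polycomb complex PRC2. The canonical forms H3.1 and H3.2 come from clusters of intronless genes that are read mainly in S phase. Their mRNAs end in a stem-loop bound by the protein SLBP and have no poly(A) tail. The variant H3.3 comes from H3f3a and H3f3b, which have introns and polyadenylated mRNAs and are active outside S phase too. Among mouse genes, Hist1h3a and Hist1h3h encode H3.1, and Hist1h3b encodes H3.2.

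All 3 genes consist of a single exon on chromosome 13 (GENCODE M21, GRCm38). Hist1h3a (ENSMUSG00000069265) lies at chr13:23761853-23762386 on the minus strand and Hist1h3b (ENSMUSG00000069267) at chr13:23752267-23752886 on the plus strand. Hist1h3h (ENSMUSG00000069312 in the files, ENSMUSG00000101355 in GENCODE M21) lies apart from them at chr13:21717659-21718069 on the plus strand, where the annotation holds its coding sequence only. Each coding sequence has 411 bases. The names of these 3 genes, and of no other listed gene, end in an asterisk, whose meaning is not given in the sources used here.

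The stretch around the codon of lysine 27, in capitals, shows how alike the members are and how far they stand from the H3.3 genes. It covers coding bases 46 to 120, counted from the start codon, at chr13:23762234-23762308 (minus strand) in Hist1h3a, chr13:23752425-23752499 in Hist1h3b and chr13:21717704-21717778 in Hist1h3h, with H3f3a (chromosome 1) and H3f3b (chromosome 11) beside them.
Hist1h3a: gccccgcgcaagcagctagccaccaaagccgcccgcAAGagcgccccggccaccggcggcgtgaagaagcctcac
Hist1h3b: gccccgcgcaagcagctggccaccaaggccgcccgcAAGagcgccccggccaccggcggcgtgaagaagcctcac
Hist1h3h: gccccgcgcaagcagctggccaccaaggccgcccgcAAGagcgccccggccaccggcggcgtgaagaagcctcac
H3f3a: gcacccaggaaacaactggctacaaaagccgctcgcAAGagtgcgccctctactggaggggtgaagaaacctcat
H3f3b: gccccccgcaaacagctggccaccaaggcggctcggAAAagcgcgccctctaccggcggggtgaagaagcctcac

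Over the whole coding sequence the members differ among themselves at 11 of 411 bases. Of these, 2 lie in the stretch above and 9 in the last 144 coding bases. Those 144 bases are shown for Hist1h3h (chr13:21717926-21718069), with capitals where any of the members differ, not only where Hist1h3h does. All 11 positions together are what reads of the coding sequence can tell the members apart by. Hist1h3h differs from Hist1h3a at 5 bases and from Hist1h3b at 7.
Hist1h3h: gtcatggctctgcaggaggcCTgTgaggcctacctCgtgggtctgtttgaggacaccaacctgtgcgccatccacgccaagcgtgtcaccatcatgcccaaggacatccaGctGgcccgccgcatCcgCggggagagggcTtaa

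All 3 H3 genes had high normalized counts in each tumour with H3.3K27M and counts close to 0 in each tumour without it. Whether RNA without a poly(A) tail was kept is not described here, so counts close to 0 need not mean little RNA. Hist1h3a, an H3.1 gene, had 2476, 2651 and 1048 normalized counts in H3.3K27M replicates 1, 2 and 3, against 7.04, 0.976 and 3.27 in the tumours without H3.3K27M. Hist1h3b, the H3.2 gene, had 2781, 2942 and 1087 normalized counts with H3.3K27M, against 8.05, 0 and 0 without. Hist1h3h, the other H3.1 gene, had 2720, 2865 and 1054 normalized counts with H3.3K27M, against 6.04, 2.93 and 4.36 without. Replicates 1 and 2 with H3.3K27M stood close together and high, replicate 3 stood at well under their level, and the groups did not overlap for any of the 3 genes. The lowest H3.3K27M tumour exceeded the highest tumour without the mutation by 149-fold for Hist1h3a, 135-fold for Hist1h3b and 175-fold for Hist1h3h. In bulk tumours, more cells that express a gene and more RNA per cell cannot be told apart. Whether reads of the introduced H3.3K27M were counted in these genes was not tested.

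**Figure D1:**
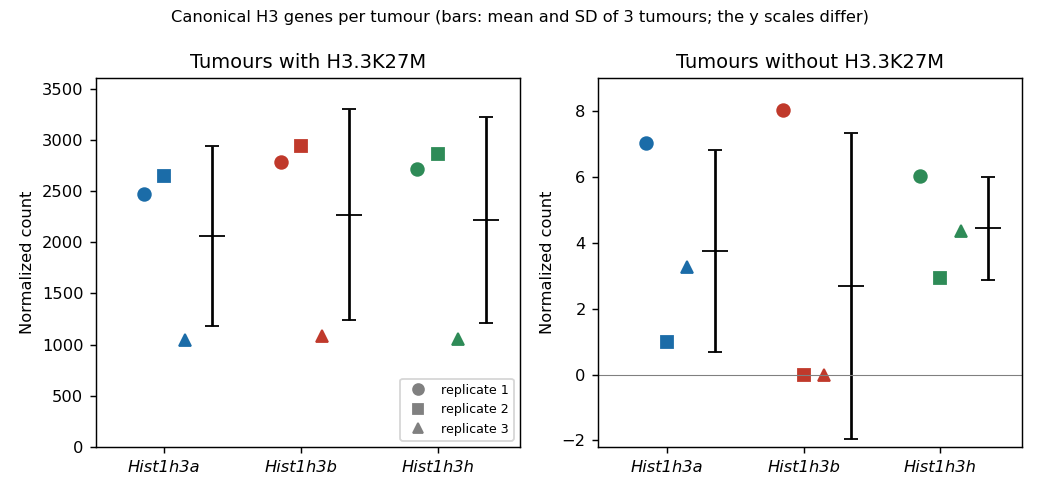
Normalized counts of the 3 H3 genes in each tumour, with H3.3K27M on the left and without on the right. Points are tumours, bars are the mean ± SD of 3 tumours, and the 2 panels have different linear scales. The H3.3K27M tumours lie between 1048 and 2942, and the others between 0 and 8.05.

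Group means were 2058 ± 880 with and 3.76 ± 3.06 normalized counts without H3.3K27M for Hist1h3a, and 2213 ± 1006 with and 4.44 ± 1.56 without for Hist1h3h (SD, n = 3 each). For Hist1h3b they were 2270 ± 1028 with and 2.68 ± 4.65 without. Whether a read that matches several of the genes was counted in each, and so repeatedly in a sum, is not stated. The 3 genes added together came to 6541 ± 2913 with and 10.9 ± 9.06 without, a 601-fold ratio of the means. These differences chose the members, so the ratios of 547-fold for Hist1h3a, 846-fold for Hist1h3b and 498-fold for Hist1h3h are a description. In the authors' deposited table they are the genes with the 3 smallest of all adjusted p-values, 1.21e-13, 3.21e-13 and 4.18e-12. That table calls 1.36% of 16365 genes and 1.11% as higher with H3.3K27M, and the members were picked from these calls. Of the listed genes, 81.6% are higher with H3.3K27M, and the groups do not overlap in 99.6%, so the separation of the members' groups is shared by nearly the whole table.

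The size of each fold rests on a handful of counts in the tumours without H3.3K27M. There, the steps of the values correspond to 11 counts of Hist1h3a, 8 of Hist1h3b and 13 of Hist1h3h over the 3 tumours, against 6280, 6927 and 6753 with H3.3K27M. With the 3 tumours of each group pooled, an exact 95% counting interval was taken for each fold. It ran from 305 to 1095 for Hist1h3a, from 420 to 1921 for Hist1h3b and from 291 to 934 for Hist1h3h, so the 3 intervals overlap. The intervals cover counting error only and leave out the spread between tumours. If reads that match several genes were counted in each, the counts of the 3 genes are not independent. Replicate 1 held 21 of the 32 counts of the 3 genes in the tumours without H3.3K27M, where replicates 2 and 3 held 4 and 7. Without replicate 1 the log2 fold of Hist1h3a was 9.92 in place of 9.09, and that of the summed level 10.15 in place of 9.23. Hist1h3b then had no count left without H3.3K27M and was at least 1469-fold higher with it, taking 3 counts over both remaining tumours as the limit.

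The folds stood far from those of the rest of the table. The members were chosen on this same contrast, so their ranks by fold are a description. Among the 219 listed genes with a finite fold, Hist1h3b, Hist1h3a and Hist1h3h ranked 1, 2 and 3, and the median log2 fold was 1.32. The fold of Hist1h3h was 11.3 times that of the next gene. In the authors' deposited table that gene is the chitinase-like macrophage gene Chi3l3 with 44.0-fold (adjusted p = 0.00776), followed by the ephrin receptor Epha3 with 42.3-fold (adjusted p = 0.0150). Mab21l2, a gene of eye development, then had 21.8-fold, the proline transporter Slc6a7 19.2-fold and the myosin-binding protein gene Mybpc1 19.0-fold in that table. Chi3l3 reached 39.5 normalized counts at most, in H3.3K27M replicate 3, where the H3 genes had 1048 to 1087. By mean level with H3.3K27M, the H3 genes ranked 29 (Hist1h3b), 31 (Hist1h3h) and 37 (Hist1h3a) from the top of 223 genes, and by mean level without it 5, 9 and 8 from the bottom.

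**Figure D2:**
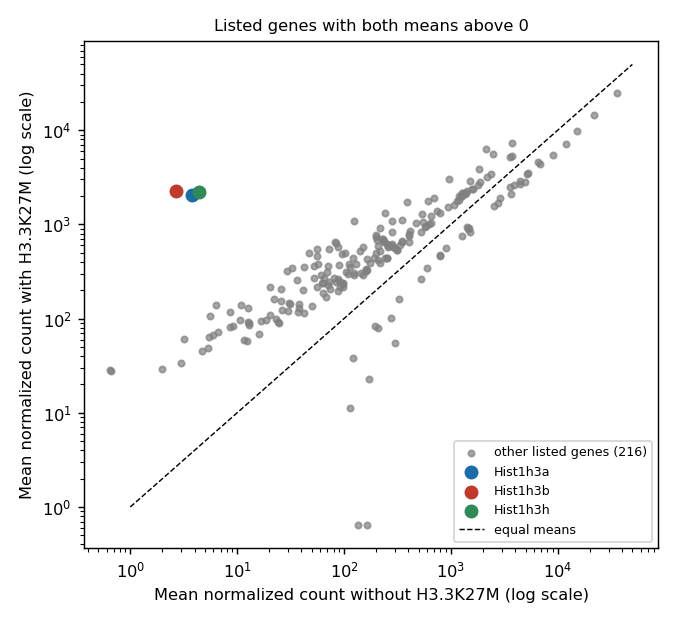
Mean normalized count of each listed gene with H3.3K27M (vertical, log scale) against that without (horizontal, log scale), for the 219 genes with both means above 0; the dashed line marks equal means. The 3 H3 genes stand alone at the upper left, with means of 2058 to 2270 with and 2.68 to 4.44 without H3.3K27M.

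The 3 genes took nearly equal parts of their own sum, which leaves out the unlisted H3 genes, in every H3.3K27M tumour. Hist1h3a made up 31.0%, 31.3% and 32.8% of their summed level in replicates 1, 2 and 3, Hist1h3b 34.9%, 34.8% and 34.1%, and Hist1h3h 34.1%, 33.9% and 33.1%. The SD of these shares over the 3 tumours was 0.97, 0.43 and 0.54 percentage points, while the summed level itself varied by 2.65-fold. Per kilobase of the RefSeq gene, the levels were 4931, 5281 and 2087 normalized counts for Hist1h3a, 5607, 5932 and 2192 for Hist1h3b, and 5573, 5871 and 2161 for Hist1h3h. The order was Hist1h3b, Hist1h3h, Hist1h3a in each of the 3 tumours, also per kilobase of the RefSeq gene. Their GENCODE M21 transcripts have 534 (Hist1h3a), 620 (Hist1h3b) and 411 bases (Hist1h3h). An order per length therefore depends on the annotation used.

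The first 2 genes by normalized count were close together. Hist1h3b exceeded Hist1h3h by 2.25%, 2.70% and 3.11% in the 3 tumours, and the exact 95% intervals of their shares overlapped in each. Hist1h3b exceeded Hist1h3a by 12.3% and 11.0% in replicates 1 and 2, where the intervals did not overlap, with 30.1 to 32.0% for Hist1h3a against 33.8 to 35.9% for Hist1h3b in replicate 1. In replicate 3 the excess was 3.77% and the intervals overlapped. If reads that match several genes were counted in each, the counts are not independent and the intervals do not hold. In the tumours without H3.3K27M the shares spread from 25.0 to 42.9% for Hist1h3a, from 0 to 38.1% for Hist1h3b and from 28.6 to 75% for Hist1h3h. They rest on 4 to 21 counts a tumour and give no usable order.

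**Figure D3:**
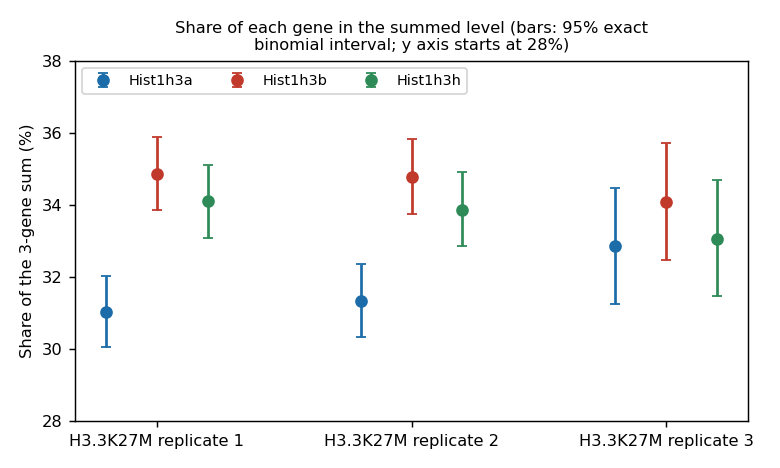
Share of each H3 gene in the summed level of the 3 genes, in percent, for each H3.3K27M tumour. Bars are 95% exact binomial intervals on the step counts, and the axis starts at 28%. All shares lie between 31.0% and 34.9%, and Hist1h3a is the lowest in each tumour.

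The H3 genes varied more between H3.3K27M tumours than most listed genes did. Their coefficients of variation were 42.7% (Hist1h3a), 45.3% (Hist1h3b) and 45.5% (Hist1h3h), against a median of 22.2% over the 220 listed genes with a value. The listed genes all passed the authors' threshold, which favours a small spread within groups where the fold is modest. That median therefore does not stand for the genes that are not listed. Replicate 3 held 0.409, 0.380 and 0.378 of the mean of replicates 1 and 2 for Hist1h3a, Hist1h3b and Hist1h3h, where the median listed gene held 1.17. It was the lowest of the 3 tumours for 41 of the 223 genes. Titles of replicates 1 and 2 share the number 623 while that of replicate 3 has 703. What these numbers mark is not stated, and with 1 tumour under 703 they cannot be told apart from differences between single tumours. All H3.3K27M titles begin with 12 and the others with 11, so what these numbers mark cannot be told apart from H3.3K27M.

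Few listed genes followed this pattern closely. Likeness was measured as the root mean square difference over the 3 tumours of log2(value / geometric mean), against the mean profile of the H3 genes. The H3 genes themselves lay within 0.02 to 0.04 of that profile, in part because it is their own mean. The median of 215 other genes was 0.79. The nearest were Ebf3, a transcription factor of neuronal differentiation, at 0.15, and Cdon, a cell surface co-receptor of Hedgehog, at 0.19. Ebf3 had 116, 123 and 57.8 normalized counts with H3.3K27M, against 15.1, 44.9 and 8.73 without. Cdon had 359, 343 and 177 with H3.3K27M, against 38.2, 73.2 and 70.9 without. Both were, as the H3 genes, lowest in replicate 3 of the H3.3K27M tumours, a trait that their choice by this likeness favoured. The paternally expressed gene Ndn followed at 0.30, Bche, which encodes butyrylcholinesterase, at 0.37 and AW551984 at 0.38. The likeness rests on 3 tumours and is a description.

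Some markers of neurons, astrocytes and oligodendrocytes are listed as higher with H3.3K27M too, with another order of the tumours, and their part in the H3 levels was not tested. Of 20 neuron markers 7 are listed, all as higher, where 1.11% of all genes tested are, and none of these 7 was at 0 in any tumour. The markers not listed have no level here. Their summed level was 6807, 2732 and 6743 normalized counts in H3.3K27M replicates 1, 2 and 3, against 1300, 936 and 476 without. Replicate 2, which had the most of each H3 gene, had the least of the neuron markers. Of 10 astrocyte markers 2 are listed (Aqp4 and Aldh1l1), with sums of 698 to 1130 normalized counts with and 261 to 416 without H3.3K27M. The only listed one of 10 mature oligodendrocyte markers, Ermn, had 80.6 to 217 with and 18.5 to 31.2 without. Both also had their lowest H3.3K27M value in replicate 2. Of 8 glioma and progenitor markers, among them Olig2, Sox2 and Pdgfra, of 10 microglia and macrophage markers and of 10 endothelial and mural markers 0 are listed, so the labelled tissue could not be checked at its defining genes.

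**Figure D4:**
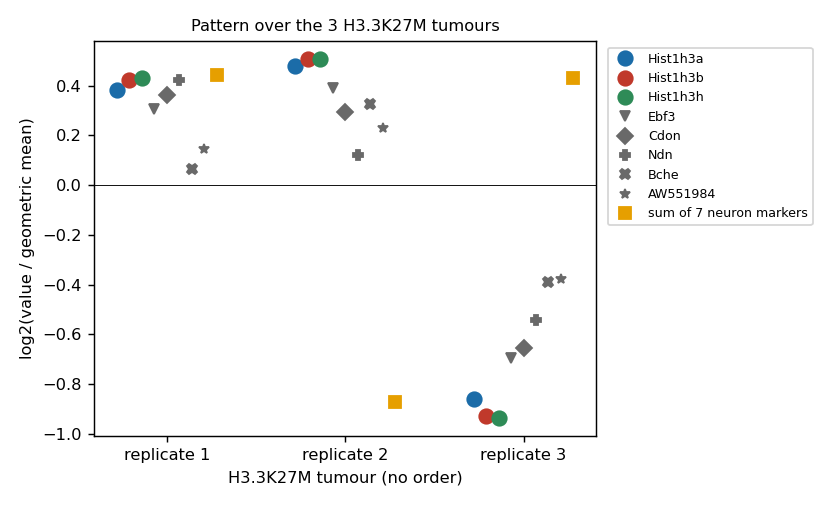
Log2 of each value over its geometric mean in the 3 H3.3K27M tumours, for the 3 H3 genes (coloured circles), the 5 most similar listed genes (grey) and the sum of the 7 listed neuron markers (orange squares). The H3 genes are low in replicate 3, and the neuron markers in replicate 2.

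Of the 12 canonical H3 genes, 3 are listed and 9 are not, a count that the choice of members fixed. Of 58 canonical H4, H2A, H2B and linker H1 genes, 0 are listed, and of the variant lists, which hold H3f3a, H3f3b and the centromeric H3 gene Cenpa, 0 as well. With 1.36% of all genes tested in the table, a count of 0 in lists of this size is near the share over all genes and is no result about these lists. The same holds for 71 further genes, of which 0 are listed, on the lists for histone mRNA synthesis and processing (such as Slbp and the histone locus factor Npat), for H3 chaperones (such as Chaf1a and Hira), for PRC2 and H3K27 demethylation (such as Ezh2) or for S phase and proliferation (such as Mki67 and Pcna). A gene that is not listed did not pass the authors' threshold or was not tested, and its level is not known here. The introduced or targeted genes Pdgfb, Trp53, H3f3a and H3f3b are among these, so the genotypes could not be checked at them.

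How far reads of these genes can be told apart depends on their sequence. In Hist1h3a, 49.5% of the 50-base windows of the transcript also occur in another canonical H3 transcript, in Hist1h3b 60.4% and in Hist1h3h 93.9%. The annotated transcript of Hist1h3h holds no untranslated part. Over coding sequence alone, the shares were 66.3% for Hist1h3a and 94.8% for Hist1h3b. Coding identity among the members was 97.6 to 98.8%, and with the 9 other canonical H3 genes it was 93.7 to 99.3%. The closest of all to Hist1h3h by shared windows was Hist1h3i, an H3.1 gene that is not listed, with 79.3%, and the closest to Hist1h3b within the members was Hist1h3h with 73.5%.

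The stretches that the members have in common do not set them apart from the unlisted genes. Of 362 coding windows of 50 bases, 204 were found in all 3 members, and 0 of these 204 were absent from the 9 other canonical H3 genes. With windows of 36, 75 and 100 bases, 246, 141 and 116 windows were common to the members, and again 0 were theirs alone. Windows that occur in no other H3 transcript numbered 122 of 362 in the coding sequence of Hist1h3a, 19 in that of Hist1h3b and 22 in that of Hist1h3h. The read length and the treatment of reads that match several genes are not stated, so the part of shared reads in the 3 levels was not tested.

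The H3.3 genes stood far off at the level of sequence. Coding identity with H3f3a and H3f3b was 77.1 to 81.8%, the longest exact run in common was 21 bases, and 0% of the members' windows of 36 or more bases occurred in a transcript of either gene. Sequence of the introduced H3.3K27M was not used here, so these values for mouse H3f3a and H3f3b do not cover it.

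**Figure D5:**
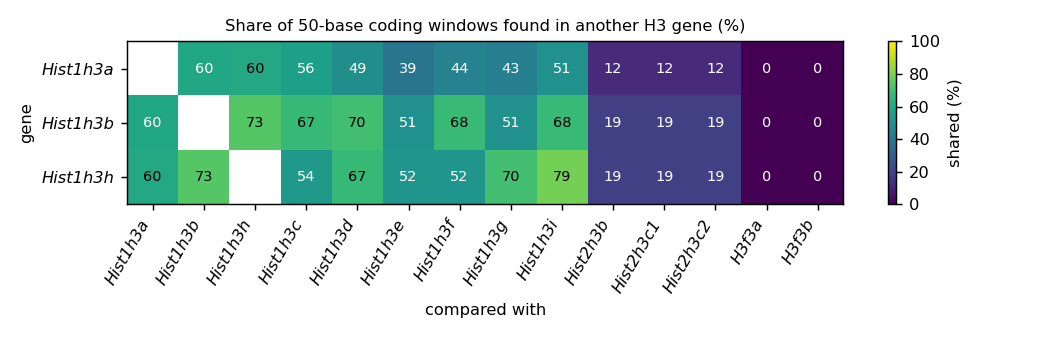
Share of the 362 coding windows of 50 bases of each member (rows) that are found in the coding sequence of another H3 gene (columns), in percent; blank cells are the gene itself. Shares are 59.7 to 73.5% between members, 11.9 to 79.3% with the other canonical H3 genes and 0% with H3f3a and H3f3b.

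The stem-loop of canonical histone mRNAs was found in Hist1h3a and Hist1h3b, whose annotated transcripts run past the stop codon. The stem-loop, searched on the transcript strand as the stem GGCTCT, the loop TNTN and the stem AGAGCC without a gap, is printed in capitals with 5 bases on either side, at chr13:23761885-23761910 (minus strand) for Hist1h3a and chr13:23752815-23752840 for Hist1h3b.
Hist1h3a: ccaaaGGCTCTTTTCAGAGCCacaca
Hist1h3b: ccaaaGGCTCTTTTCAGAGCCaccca
The motif occurred in transcripts of 9 of the 12 canonical H3 genes, in 0 of the 2 H3.3 genes and in 0.0324% of all 141767 transcripts. The annotated transcript of Hist1h3h ends at its stop codon.

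The RefSeq promoter table holds 2 of the 3 genes. Their last 110 bases before the RefSeq start site (GRCm38.p6) are shown, with no test of a part of these bases in the levels. They lie at chr13:23752235-23752344 for Hist1h3b and chr13:21717518-21717627 for Hist1h3h, both on the plus strand, with matches to CCAAT and TATAAA in capitals.
Hist1h3b: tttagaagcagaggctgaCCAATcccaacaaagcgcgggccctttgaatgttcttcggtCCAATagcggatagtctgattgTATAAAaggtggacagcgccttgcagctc
Hist1h3h: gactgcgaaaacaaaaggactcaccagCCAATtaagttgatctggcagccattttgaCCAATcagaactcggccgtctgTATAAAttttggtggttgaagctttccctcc
In Hist1h3b the CCAAT matches begin at -92 and -51 and TATAAA at -29 from the start site, and in Hist1h3h at -83, -53 and -31. On either strand, CCAAT occurred in the same window of 20.2% and TATAAA in 5.94% of 32851 promoters, and both together in 1.17%. Of the 10 canonical H3 promoters in the table, 7 held CCAAT and 3 held TATAAA. The RefSeq start site of Hist1h3b lies 78 bases downstream of the start of its GENCODE M21 transcript, so 78 of the 110 bases printed for it, with the CCAAT match at -51 and TATAAA, lie inside that transcript. For Hist1h3h, 0 of the 110 bases do. These letters are a description of the sequence, not of factor binding or of the start site used in the tumours.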

How the data were processed

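RNA was sequenced from 6 mouse brainstem gliomas, 3 with and 3 without H3.3K27M, grouped by sample title and numbered within each group in the order of the samples. The authors deposited 1 table of genes that differed, with a signal per tumour (normalized counts), group means, the fold change as a ratio of the means, its log2, and raw and adjusted p-value columns. DESeq and the builds mm9 and NCBIM37 are named, per the submitters' processing notes. For aligner, counter, read length and strand, the entry is: not given in the sources used here. There were 0 per-tumour columns without a matching sample.

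The deposited adjusted p-values match Benjamini-Hochberg adjustment over 16365 tests, so the table holds the 223 genes under 0.05. In each column all values were whole multiples, within 0.01, of 1 step, as whole reads scaled by 1 size factor per tumour would be (0.917 to 1.06). Only 2 to 36 values a column were of 1 to 20 steps, too few to settle that a step is a read. Step counts, their exact 95% binomial intervals and the limit of 3 counts for a count of 0 rest on that reading and cover counting error only, and no count test was run. Over the listed genes a tumour held 215758 to 277881 steps. These are not library totals, and the total depth is unknown.

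The members and gene lists were chosen with earlier results of these data known. The genes were selected on the contrast described, so values are given with no test of that contrast. Besides them, the text names the 5 other genes with the largest finite rise and the 5 whose pattern over the H3.3K27M tumours was most like that of the H3 genes. Sequences came from GENCODE M21 transcripts (GRCm38) and RefSeq promoters (GRCm38.p6). Hist1h3h was matched by symbol, as its deposited identifier differs from that in GENCODE M21. Python 3.11.15, pandas 2.3.3 and scipy 1.17.1 were used. The recovery of steps and of the number of tests was checked on simulated data. Alternatives were pseudocounts of 1 and 10, medians, no normalization, each tumour left out, minimum mean levels of 10 and 100, and other window lengths.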

Additional observations from a re-analysis of the deposited data

How the results depend on the processing

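All 3 H3 genes and their sum were higher with H3.3K27M under every alternative that gave a value. With each tumour left out in turn, the log2 fold ran from 8.64 to 9.92 for Hist1h3a, 8.73 to 9.30 for Hist1h3h and 8.83 to 10.15 for the sum. For Hist1h3b it ran from 9.14 to 10.06 over the 5 tumours whose removal leaves a finite fold. Without replicate 1 of the tumours without H3.3K27M, Hist1h3b had no count left there and its log2 fold was at least 10.52. With a pseudocount of 10 it was 7.14 for Hist1h3a, 7.42 for Hist1h3b and 7.14 for Hist1h3h, since 10 exceeds every value of the tumours without H3.3K27M. The ratio of medians also gave no value for Hist1h3b, whose median without H3.3K27M was 0. The share of transcript windows of Hist1h3a found in another H3 transcript was 56.5%, 38.5% and 32.2% with 36, 75 and 100 bases and 66.3% over coding sequence alone, where that of Hist1h3b was 94.8%. The ranks by fold and the 5 most similar genes did not change under their alternatives. No paired analysis was possible because the labels give no replicate numbers that the groups share. The low counts without H3.3K27M limit the size of each fold and any comparison of shares between the groups.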
